A study of Mus musculus with 12 samples.

Results

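Gene expression after DNA damage was compared between mouse embryonic fibroblasts (MEFs) edited to lack TFEB and TFE3 (TFEB/TFE3 DKO) and the control MEFs, which the sample labels call Null and the methods of the study call WT. The 6 libraries described here, of 12 in the series, are 3 of DKO MEFs and 3 of Null MEFs, all grown in DMEM and treated with 100 µM etoposide for 8 hr. They were chosen by their labels, and all genes of the table were used. The other 6 libraries, 3 per genotype without etoposide (untreated per the labels, DMSO per the methods), serve to show where the difference after etoposide departs from the difference without it. Per the study the MEFs it used were immortalized with SV40. The DKO MEFs were made by CRISPR editing, and the labels and methods name 1 line per genotype, so that the genotype and any other difference between the lines cannot be told apart.

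TFEB and TFE3 are related basic helix-loop-helix leucine zipper factors that drive transcription of lysosomal and autophagy genes, and mTORC1 holds them in the cytosol by phosphorylation while nutrients are plentiful. Etoposide traps topoisomerase II on cut DNA, and the breaks activate the ATM and ATR kinases and the transcription factor p53. p53 in turn switches on genes for cell cycle arrest, DNA repair, apoptosis and its own destruction, among them the ubiquitin ligase Mdm2.

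RNA-Seq libraries were made from total RNA depleted of ribosomal RNA, and the deposited values are whole read counts per gene symbol. Counts on genes were 75454495, 76125320 and 63286195 in Null replicates 1 to 3 and 45577023, 68441372 and 94388705 in DKO replicates 1 to 3 after etoposide. DKO replicate 1 was the shallowest library and DKO replicate 3 the deepest. A count of 3, taken as the floor of detection in a library, corresponds to at most 0.0607 CPM, counts scaled to the library size, in these libraries, and this floor covers counting error only. Of all lines in the files, those with no annotated exon were 25.1 to 27.3% in the Null libraries and 21.2 to 22.3% in the DKO libraries. The share of the ribosomal transcript Rn45s among counts on genes was 3.81 to 4.37% in Null and 2.98 to 3.58% in DKO libraries. Both shares separate the genotypes without overlap. Principal components of the 6 libraries separated the genotypes along the first axis (86.3% of variance), and the second (4.9%) set DKO replicate 1 apart from the other DKO libraries.

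The libraries of both genotypes carried transcripts that mark fibroblasts. All 14 fibroblast markers were tested, of which 11 were higher in DKO MEFs, 2 (Thy1 and Vim) lower and 1 (Twist1) not past the threshold, an adjusted p of 0.05 (median log2 fold change 0.62). Over all 15220 genes tested 37.5% were higher and 36.6% lower. Vim, which encodes the intermediate filament vimentin, was measured at 1609, 1643 and 1643 CPM in Null and 807, 790.1 and 807 CPM in DKO MEFs. Thy1, a surface protein of many fibroblasts, was near the limit of detection in DKO MEFs, at 0.0405, 0.287 and 0.0596 CPM against 2.37, 2.11 and 1.88 CPM in Null MEFs. For both genes every DKO library lay below every Null library. The 10 macrophage markers summed to 67.7, 67.3 and 66.4 CPM in Null and 12.5, 9.68 and 11.96 CPM in DKO MEFs. Cd14, a receptor for lipopolysaccharide that fibroblasts can also express, made up most of these sums, while Adgre1 had at most 6 counts in any of the 6 libraries. Of the 8 macrophage markers tested 2 (Cd14 and Lyz2) were lower in DKO MEFs and none was higher. The 8 epithelial markers summed to 3.80, 4.47 and 4.35 CPM in Null and 3.06, 2.43 and 2.60 CPM in DKO MEFs, with Cdh1 at the highest count. The 8 endothelial markers summed to 6.22, 5.70 and 5.72 CPM in Null and 2.29, 2.09 and 2.05 CPM in DKO MEFs, with Vwf at the highest count. All 8 epithelial and 6 of the endothelial markers were tested, and in each list 4 were lower in DKO MEFs and none higher. Among the 11 neural and muscle markers, of which 8 were tested, 5 were lower and 1, the neuronal microtubule gene Map2, was higher. Their sums of 458, 456 and 441 CPM in Null and 222, 219.6 and 236 CPM in DKO MEFs consisted mostly of Nes, the gene of the intermediate filament nestin, and Sox10, Myod1 and Myog were too low to test. In such bulk libraries fewer cells of a type and less RNA per cell cannot be told apart.

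Of the 15220 genes tested, 11270 (74%) differed between DKO and Null MEFs after etoposide at an adjusted p under 0.05, with p-values from edgeR adjusted by Benjamini and Hochberg over all of them. In DKO MEFs 5701 genes (37.5%) were higher and 5569 (36.6%) lower, an order that turns with DESeq2's size factors (5072 and 6096). Replicates of the genotypes did not overlap for 11375 genes (74.7%). This near balance over all sizes did not hold by size. From 1.5-fold upward 2051 genes were higher and 3538 lower, so that smaller differences leaned to higher genes and larger ones to lower genes. At least 2-fold differences comprised 791 higher genes (5.2%) and 2595 lower genes (17%), and at least 8-fold differences comprised 40 higher and 732 lower genes. Falls of 2-fold or more took up larger shares of the genes with few counts. Among the 3019 genes with a mean under 1 CPM over the 6 libraries, the 2-fold differences were 211 rises and 1111 falls in DKO MEFs, and the 2839 genes from 1 to 10 CPM had 259 and 923. The 7074 genes from 10 to 100 CPM had 257 and 474, and the 2288 genes from 100 CPM upward 64 and 87. In this order the median log2 fold changes were -0.65, -0.30, 0.11 and 0.11. Null libraries held 19215, 19141 and 18871 genes with at least 1 count, and DKO libraries 17912, 18588 and 19159. DKO replicate 3, the deepest, lay inside the range of the Null libraries in this number, and the other DKO libraries lay below it. At or under the floor in every library of a genotype were 127 tested genes in DKO and 10 in Null MEFs. The filter keeps a gene with enough counts in about as many libraries as a group holds, whichever they are. Genes at the floor throughout a genotype after etoposide were thus tested only through other libraries, and their numbers are no test of a difference. This selection also enters the rises and falls under 1 CPM.

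**Figure D1:**
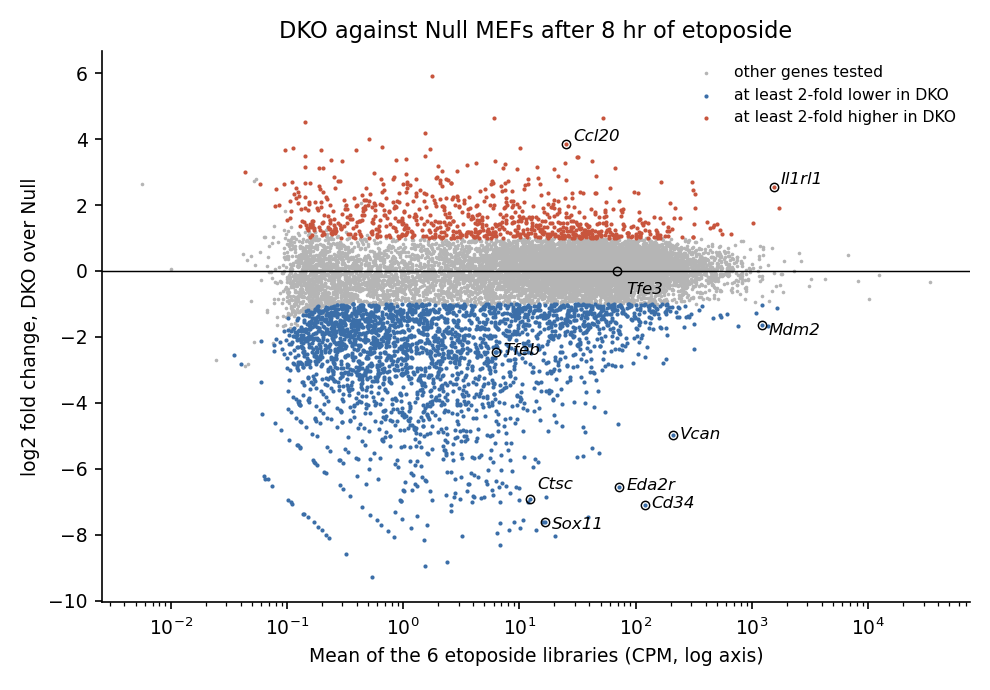
Log2 fold change of DKO over Null MEFs after 8 hr of etoposide (vertical axis) against the mean CPM of the 6 etoposide libraries (horizontal log axis), with a point for each of the 15220 genes tested. Red points are the 791 genes at least 2-fold higher and blue points the 2595 genes at least 2-fold lower in DKO MEFs at an adjusted p under 0.05, and the blue points crowd at the left.

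Tfeb transcript was reduced in the DKO line, and a difference in Tfe3 transcript after etoposide was not past the threshold. Tfeb (chromosome 17, 47737030 to 47792419) was measured at 11.4, 10.2 and 10.4 CPM in Null and 1.92, 1.61 and 2.20 CPM in DKO MEFs after etoposide. All DKO libraries were far below all Null libraries, a 5.49-fold difference (log2 fold change -2.46, standard error 0.12, adjusted p = 5.06e-12, edgeR, n = 3 per genotype). Tfe3 (chromosome X, 7762560 to 7775202) was measured at 68.5, 69.6 and 68.1 CPM in Null and 70.7, 71.2 and 63.4 CPM in DKO MEFs. The groups overlapped (log2 fold change -0.01, standard error 0.04, adjusted p = 0.871), beside a log2 fold change of -0.29 without etoposide (adjusted p = 8.68e-06). The counts do not show whether the Tfe3 transcripts carry an edited sequence. Mitf (chromosome 6, 97807052 to 98021349), the relative that controls melanocyte and osteoclast genes, was measured at 23.2, 22.6 and 22.3 CPM in Null and 14.6, 13.1 and 14.2 CPM in DKO MEFs. Every DKO library was below every Null library (log2 fold change -0.70, standard error 0.05, adjusted p = 1.47e-09). Without etoposide the order was the opposite, with 8.63, 9.14 and 8.94 CPM in Null and 42.9, 42.5 and 44.4 CPM in DKO MEFs, which gives an interaction, the log2 fold change after etoposide minus that without, of -2.98 (adjusted p = 1.02e-14). Tfec, the remaining member of the family, was not tested, with 11, 2 and 3 counts in the Null and 0, 2 and 0 counts in the DKO libraries.

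**Figure D2:**
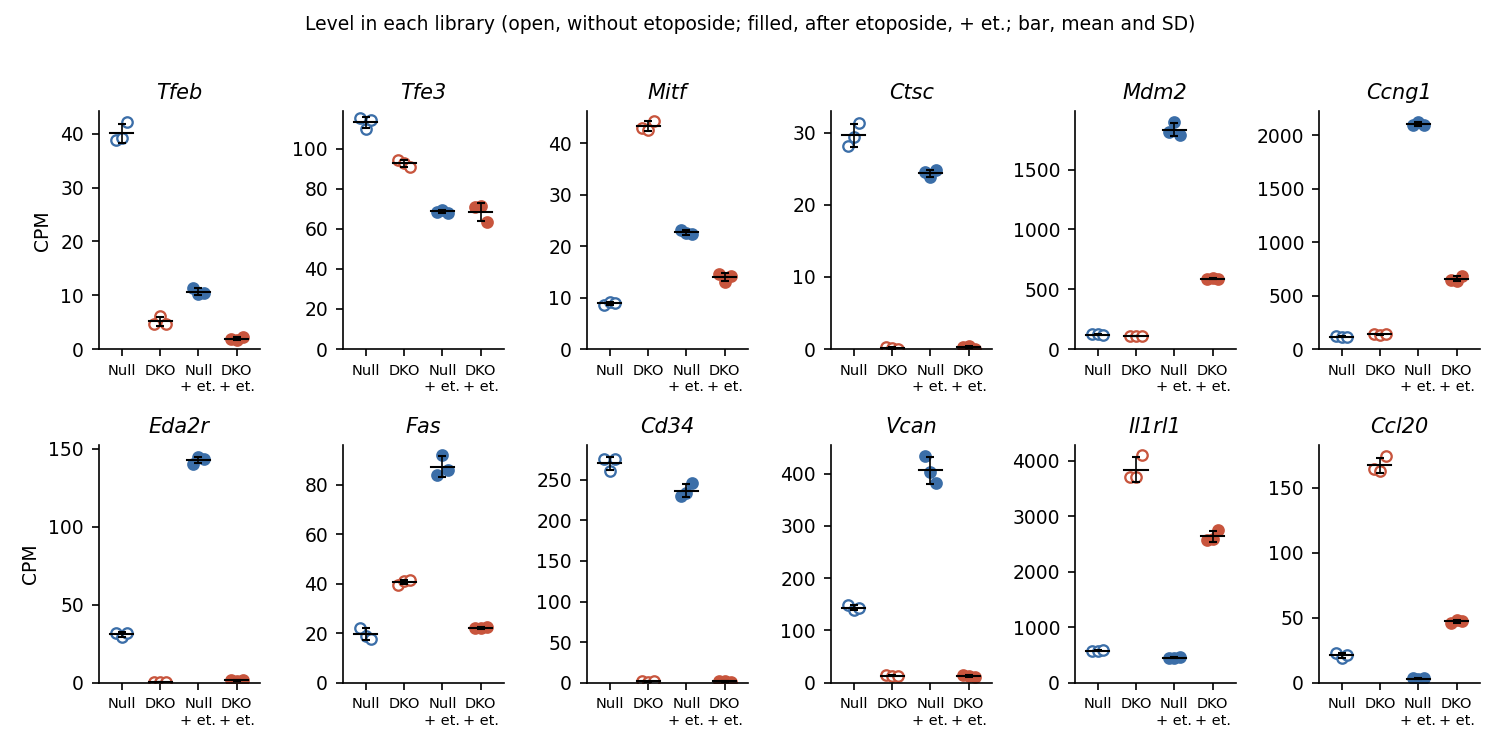
CPM of 12 genes in each library, with open symbols without etoposide, filled symbols after it, and bars for the mean and SD of the 3 libraries of a group. Tfeb, Ctsc, Mdm2, Ccng1, Eda2r, Fas, Cd34 and Vcan lie lower in DKO than in Null MEFs after etoposide, Il1rl1 and Ccl20 higher, and the Tfe3 values of the genotypes overlap.

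Lysosomal genes, the classical targets of TFEB and TFE3, moved in both directions. Of 51 genes for lysosomal hydrolases 50 were tested, of which 25 were higher, 18 lower and 7 not past the threshold, with a median log2 fold change of 0.12 beside -0.004 over all genes tested, of which 37.5% were higher and 36.6% lower. The cathepsins, the proteases of the lysosome, were lower in 5 and higher in 3 of 10 members tested, and the glycosidases lower in 6 and higher in 9 of 17. Sulfatases were lower in 2 and higher in 3 of 6, and lipases and other enzymes lower in 5 and higher in 10 of 17. Ctsc, which encodes the dipeptidyl peptidase that activates serine proteases of immune cells, was measured at 24.5, 23.8 and 24.8 CPM in Null and 0.263, 0.355 and 0.0596 CPM in DKO MEFs. Its DKO libraries held almost none of the transcript, a 119.7-fold difference (log2 fold change -6.90, standard error 0.19, adjusted p = 1.83e-15). Ctsf, another cysteine cathepsin, was measured at 48.2, 46.9 and 52.0 CPM in Null and 8.20, 8.85 and 8.01 CPM in DKO MEFs, with no overlap (log2 fold change -2.55, standard error 0.07, adjusted p = 1.72e-15). Ctsd, the aspartic protease cathepsin D, was lower after etoposide (log2 fold change -0.51) and higher without it (0.43). Exons of Ctsd overlap Gm49369 on the same strand. On the other side, Manba, which removes mannose from glycoproteins, was measured at 5.82, 5.67 and 6.36 CPM in Null and 19.4, 18.5 and 17.4 CPM in DKO MEFs, higher in all DKO libraries (log2 fold change 1.63, standard error 0.08, adjusted p = 3.77e-12). Smpd1, the acid sphingomyelinase, rose by a log2 fold change of 0.85, and Psap, the precursor of the saposins, by 0.42.

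Among 36 symbols for lysosomal membrane proteins and lysosome biogenesis 32 were tested, and 17 were higher, 10 lower and 5 not past the threshold (median 0.14), beside 37.5% higher and 36.6% lower of all genes tested. With DESeq2's size factors these counts were 11 higher and 12 lower, and with a stricter filter 10 and 10, so the list has no direction that holds under each setting. Lamp2, a membrane protein that lines the lysosome and takes part in chaperone-mediated autophagy, was measured at 202, 205 and 198 CPM in Null and 409.7, 418 and 417 CPM in DKO MEFs, higher in every DKO library (log2 fold change 1.04, standard error 0.03, adjusted p = 1.16e-14). Lamp1, its relative, differed by a log2 fold change of only -0.16. Cd68, a lysosomal glycoprotein, was lower after etoposide (log2 fold change -1.93) and did not differ past the threshold without it (0.09, adjusted p = 0.71). Of 19 genes of the V-ATPase, the proton pump that acidifies the lysosome, 17 were tested, and 9 were higher, 6 lower and 2 not past the threshold (median 0.13), and 6 of 17 is about the share of lower genes among all genes tested, 36.6%, while 37.5% of these were higher. The accessory subunit genes Atp6ap2 and Atp6ap1 were higher, with log2 fold changes of 1.46 and 1.04. Tcirg1, the subunit a3 of osteoclasts and other acid-secreting cells, was measured at 203, 191 and 184 CPM in Null and 86.9, 78.0 and 76.6 CPM in DKO MEFs, with no overlap (log2 fold change -1.26, standard error 0.05, adjusted p = 2.07e-13).

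Of 54 autophagy genes listed, 53 were tested, and 30 were higher, 11 lower and 12 not past the threshold (median 0.20), beside 37.5% higher and 36.6% lower of all genes. The receptors and fusion genes were higher in 12 and lower in 3 of 17, and the conjugation genes higher in 8 and lower in 1 of 15. Sqstm1, the cargo receptor p62, was measured at 419, 411 and 429.6 CPM in Null and 922, 904 and 894 CPM in DKO MEFs. The DKO libraries were above all Null libraries, 2.16-fold on average (log2 fold change 1.11, standard error 0.03, adjusted p = 1.83e-15), and its exons overlap Mrnip on the opposite strand. Genes of initiation were higher in 6 and lower in 4 of 12, and those for lipid binding and transfer higher in 4 and lower in 3 of 9. Among the lower ones, Ulk1, the kinase that initiates autophagy, was measured at 139, 130.1 and 133 CPM in Null and 69.2, 73.7 and 59.2 CPM in DKO MEFs (log2 fold change -0.99, standard error 0.06, adjusted p = 8.12e-11). Wipi1, which binds phosphatidylinositol 3-phosphate on the growing membrane, had a log2 fold change of -1.30, and Atg9b, a lipid scramblase gene whose exons overlap Nos3 on the opposite strand, one of -2.91. Without etoposide 30 of the 53 genes were higher and 12 lower (median 0.20), beside 33.3% higher and 33.4% lower of all genes. Ulk1 and Wipi1 were higher in DKO MEFs without etoposide, with log2 fold changes of 0.60 and 0.27.

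TFEB and TFE3 bind the E-box CACGTG, and the longer palindrome TCACGTGA, which contains it, marks many lysosomal promoters. Both motifs read the same on both strands. RefSeq promoters of 300 bases on GRCm38.p6, from 250 bases before to 50 after the gene's start, were searched for both. CACGTG was found for 8.09% of the 27025 genes with a promoter and for 11.2% of the 11263 tested genes with a promoter, and TCACGTGA for 1.12 and 2.01%. Of the genes for lysosomal hydrolases with a promoter, 13 of 41 (31.7%) held CACGTG. The tested genes with CACGTG had a median log2 fold change of 0.10 and those without it one of 0.01. Of the 1262 tested genes with it 574 were higher and 406 lower, and of the 10001 without it 3871 and 3644. Among the 13 hydrolase genes with the hexamer 7 were higher and 6 lower in DKO MEFs (14 and 9 of 27 without it), among 9 lysosomal membrane and biogenesis genes 3 and 3 (9 and 5 of 16), and among 4 V-ATPase genes 2 and 2 (4 and 3 of 8). Of 7 genes with it that link the lysosome to mTORC1, 6 were higher and 1 not past the threshold (median 0.51), and of 16 without it 4 were higher and 8 lower (median -0.11). Of 6 tested autophagy genes with it 3 were higher and 1 lower, and of 37 without it 23 and 9. Of 8 p53 targets with it 1 was higher and 7 lower, and of 36 without it 7 and 27. The promoters of 4 lysosomal genes that hold TCACGTGA are printed here because they carry the motif at genes that did not share a direction, with both motifs in capitals. They belong to Ctsa (log2 fold change 0.19), which protects other lysosomal enzymes, to Ctsd (-0.51), to Mcoln1 (-0.09, not past the threshold), the calcium channel of the lysosome, and to Atp6v1a (-0.40), the catalytic subunit of the V-ATPase. Their positions are chr2:164833523-164833822, plus strand for Ctsa, chr7:142387778-142388077, minus strand for Ctsd, chr8:3500269-3500568, plus strand for Mcoln1 and chr16:44139210-44139509, minus strand for Atp6v1a.
Ctsa: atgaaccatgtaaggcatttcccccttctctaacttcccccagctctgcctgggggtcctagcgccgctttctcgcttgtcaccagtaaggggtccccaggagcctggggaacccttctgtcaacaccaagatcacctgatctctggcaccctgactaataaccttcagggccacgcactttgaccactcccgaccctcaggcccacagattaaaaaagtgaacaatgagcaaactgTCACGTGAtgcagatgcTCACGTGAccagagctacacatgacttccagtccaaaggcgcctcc
Ctsd: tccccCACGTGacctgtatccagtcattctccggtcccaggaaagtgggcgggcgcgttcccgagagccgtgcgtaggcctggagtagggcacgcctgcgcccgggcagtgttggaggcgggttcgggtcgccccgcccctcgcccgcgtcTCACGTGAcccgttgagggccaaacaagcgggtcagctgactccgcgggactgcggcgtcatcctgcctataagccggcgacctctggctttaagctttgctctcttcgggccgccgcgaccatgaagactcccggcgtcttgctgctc
Mcoln1: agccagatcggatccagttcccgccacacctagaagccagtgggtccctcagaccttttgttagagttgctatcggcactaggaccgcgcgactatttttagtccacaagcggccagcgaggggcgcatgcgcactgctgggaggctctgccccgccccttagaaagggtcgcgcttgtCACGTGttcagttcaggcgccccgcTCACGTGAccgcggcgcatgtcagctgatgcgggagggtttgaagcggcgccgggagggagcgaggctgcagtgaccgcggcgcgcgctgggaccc
Atp6v1a: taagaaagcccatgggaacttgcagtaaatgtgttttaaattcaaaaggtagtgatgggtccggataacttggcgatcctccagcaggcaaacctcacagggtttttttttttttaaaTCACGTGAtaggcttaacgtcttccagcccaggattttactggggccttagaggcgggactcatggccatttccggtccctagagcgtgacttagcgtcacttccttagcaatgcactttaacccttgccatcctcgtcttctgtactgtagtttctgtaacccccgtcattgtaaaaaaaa

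Of genes that link the lysosome to mTORC1 all 27 listed were tested, and 12 were higher, 10 lower and 5 not past the threshold (median 0.06). These shares, 44.4% higher and 37.0% lower, lie near the 37.5 and 36.6% of all genes tested. Rragd encodes a Rag GTPase that recruits mTORC1 to the lysosome. It was measured at 7.03, 7.54 and 8.08 CPM in Null and 0.830, 0.751 and 0.814 CPM in DKO MEFs, with all DKO libraries below all Null libraries (log2 fold change -3.24, standard error 0.13, adjusted p = 2.35e-13). Its relative Rragb was measured at 3.53, 3.39 and 3.02 CPM in Null and 21.2, 19.7 and 20.6 CPM in DKO MEFs, higher in every DKO library (log2 fold change 2.62, standard error 0.07, adjusted p = 2.57e-15). All 3 genes of the folliculin complex, which acts on the Rag GTPases, were higher, Fnip2 by 2.31-fold. Of the 9 genes for Rag GTPases and Ragulator 6 were higher and 3 lower, and of the 9 for the mTORC1 core 2 and 2. Of the 6 genes for stress inputs to mTORC1, 5 were lower, among them the inhibitor Ddit4 (-1.70) and the sestrin Sesn2 (-0.83).

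Targets of p53 were mostly lower in DKO MEFs after etoposide. The study states that SV40 immortalization of its MEFs can alter the stability of p53 and confound results. Its part in these values was not tested. All 58 listed targets were tested, and 11 were higher, 44 lower and 3 not past the threshold, with a median log2 fold change of -0.73, beside 37.5% higher and 36.6% lower of all genes tested. Without etoposide 24 were higher and 23 lower, with a median of 0.01, where 33.3% of all genes tested were higher and 33.4% lower. The interaction lay below 0 for 39 and above 0 for 5 of the targets, where 24.4% of all genes tested lay below and 29.6% above. Ccng1, which encodes cyclin G1, was measured at 2093, 2121 and 2094 CPM in Null and 648, 639 and 686 CPM in DKO MEFs. Mdm2 was measured at 1814, 1897 and 1791 CPM in Null and 586, 595 and 585 CPM in DKO MEFs. Every DKO library lay below every Null library for both genes, by 3.20-fold for Ccng1 (log2 fold change -1.68, standard error 0.04, adjusted p = 8.23e-17) and 3.11-fold for Mdm2 (log2 fold change -1.64, standard error 0.04, adjusted p = 1.62e-16). Eda2r, a receptor of the TNF receptor family, was measured at 141, 145 and 143 CPM in Null and 1.86, 1.31 and 1.53 CPM in DKO MEFs (log2 fold change -6.54, standard error 0.07, adjusted p = 1.01e-19). The DKO libraries held only traces of it, and it was as low relative to Null MEFs without etoposide (log2 fold change -6.48). Trp53i11 was also far lower (log2 fold change -4.57). Among the targets that act in apoptosis 17 of 18 were lower, among those that act in repair 4 of 8, in feedback 6 of 7, in arrest 6 of 9 and in metabolism, autophagy and secretion 11 of 16. Higher targets included Thbs1, the matrix protein thrombospondin 1 (log2 fold change 1.44), whose exons overlap Gm29233 on the opposite strand, and Casp1, the caspase that processes interleukin 1 (5.92, at a mean of 1.76 CPM over the 6 libraries).

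Of 33 genes that sense DNA damage 16 were higher, 9 lower and 8 not past the threshold (median 0.06), and of 44 genes tested of 45 for double-strand break repair 25 were higher, 14 lower and 5 not past the threshold (median 0.22). All genes tested were higher in 37.5% and lower in 36.6%. Xrcc5, which encodes Ku80 of the end-joining pathway, and Lig3, a DNA ligase, were higher, with log2 fold changes of 0.88 and 0.88. Wrap53, which lies beside Trp53, was lower (-0.96), and Trp53 itself, the gene of p53, differed by -0.28. The other genes of the p53 family had low levels and opposite directions, Trp63 at 0.415, 0.339 and 0.671 CPM in Null and 3.42, 3.99 and 2.87 CPM in DKO MEFs, and Trp73 at 2.47, 2.70 and 2.61 and 0.101, 0.396 and 0.308 CPM. Trp63 was higher and Trp73 lower in every DKO library. Top2a, the main target of etoposide, differed by a log2 fold change of 0.22.

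Among 40 apoptosis genes 36 were tested, and 12 were higher, 17 lower and 7 not past the threshold (median -0.08), where 37.5% of all genes were higher and 36.6% lower. Fas, the death receptor for Fas ligand, was measured at 84.0, 92.1 and 85.7 CPM in Null and 22.0, 21.9 and 22.4 CPM in DKO MEFs. All DKO libraries were below all Null libraries, a 3.95-fold difference (log2 fold change -1.98, standard error 0.06, adjusted p = 1.29e-14). Without etoposide Fas was higher in DKO MEFs, with 22.3, 18.8 and 17.8 CPM in Null and 39.7, 41.0 and 41.4 CPM in DKO MEFs, which gives an interaction of -3.03 (adjusted p = 4.97e-14). Tnfrsf10b, a death receptor for TRAIL, and Casp6, an executioner caspase, had log2 fold changes of -1.18 and -1.18.

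The largest difference among members of the cell cycle lists was in cyclin D1. Ccnd1, the gene of cyclin D1, was measured at 318, 319.7 and 313 CPM in Null and 48.4, 53.3 and 47.3 CPM in DKO MEFs. Every DKO library was far below the Null libraries, by 6.38-fold (log2 fold change -2.67, standard error 0.05, adjusted p = 5.77e-17), and the difference was of the same size without etoposide (-2.62). Of 7 genes for inhibitors of cyclin-dependent kinases 5 were lower and 1 higher, of 11 for cyclins and kinases 4 and 4, and of 19 for pocket proteins and E2F 6 and 10. Cdkn1a, the gene of p21 and a p53 target, was measured at 498, 511 and 510.0 CPM in Null and 242, 254 and 227 CPM in DKO MEFs, with no overlap (log2 fold change -1.07, standard error 0.05, adjusted p = 2.89e-12). In the list of 37 G1 and E2F genes as a whole, 15 were higher, 15 lower and 7 not past the threshold (median 0.06), or 40.5% in each direction beside 37.5% higher and 36.6% lower of all genes tested. Of 42 DNA replication genes 20 were higher, 16 lower and 6 not past the threshold (median -0.01), but with DESeq2's size factors 17 were higher and 19 lower. Of 48 genes of G2 and mitosis 13 were higher, 24 lower and 11 not past the threshold (median -0.10), the activator of the anaphase-promoting complex Cdc20 and the kinetochore motor Cenpe with log2 fold changes of -1.19 and -1.11.

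Among genes with a mean from 10 CPM upward over the 6 libraries, the 12 largest falls included Ctsc and Eda2r, given above. The other falls described here are also among these 12. Mab21l1 and Mab21l2, developmental genes of the eye and body wall, Sox11, a transcription factor of embryonic progenitors, and the membrane protein genes Tmem47, Tmem37 and Itm2a had log2 fold changes of -8.04, -7.80, -7.61, -7.87, -7.61 and -7.55. Cd34, a surface sialomucin of progenitor and mesenchymal cells, was measured at 230.4, 234 and 245 CPM in Null and 2.61, 1.95 and 1.05 CPM in DKO MEFs. Every DKO library held only a trace of it, 138-fold less on average (log2 fold change -7.10, standard error 0.15, adjusted p = 6.25e-17). Bcam, a laminin receptor (-7.46), and Cyba, a subunit of the NADPH oxidase (-6.86), were also lower. Without etoposide the log2 fold changes of Cd34, Sox11 and Cyba were -7.19, -8.51 and -6.90. Exons of Mab21l1, Mab21l2, Tmem47, Bcam and Cd34 overlap Nbea, Lrba, Gm26775, Gm26600 and Gm16897 on the opposite strand, and the strand setting of the counting is not given.

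Above the same mean of 10 CPM, the 12 largest rises by fold change included Ccl20, Oas2, Mmp13, Tll1, Sema3d and Postn. Il1rl1 was instead among the 6 largest rises in CPM at 2-fold or more. Ccl20, a chemokine that attracts cells with the receptor CCR6, was measured at 3.42, 3.03 and 3.33 CPM in Null and 45.6, 48.2 and 47.6 CPM in DKO MEFs. Every DKO library was above every Null library, 14.5-fold on average (log2 fold change 3.86, standard error 0.07, adjusted p = 1.07e-17). Il1rl1, the receptor for interleukin 33, was measured at 442, 454 and 465 CPM in Null and 2575, 2592 and 2747 CPM in DKO MEFs, with no overlap (log2 fold change 2.54, standard error 0.04, adjusted p = 9.03e-18). Mmp13, a collagenase, Tll1, a protease that processes procollagen, Sema3d, a guidance cue, and Postn, the matricellular protein periostin, had log2 fold changes of 3.45, 3.34, 3.28 and 3.13. These 4 genes were also higher without etoposide, by 3.55, 3.94, 4.44 and 4.10. The same held for Ccl20, Oas2 and Il1rl1, by 2.98, 2.53 and 2.74.

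All 65 genes of the fibroblast extracellular matrix were tested, and 37 were higher, 23 lower and 5 not past the threshold (median 0.45), beside 37.5% higher and 36.6% lower of all genes. In this list 19 genes were 2-fold or more higher and 17 as much lower, where all genes had 5.2 and 17%. Col3a1, a fibrillar collagen chain, was measured at 77.9, 83.0 and 81.8 CPM in Null and 552, 505 and 518 CPM in DKO MEFs. Vcan, the proteoglycan versican, was measured at 433, 403 and 382 CPM in Null and 14.8, 12.6 and 11.6 CPM in DKO MEFs. Neither gene had overlapping libraries, Col3a1 being 6.49-fold higher (log2 fold change 2.70, standard error 0.04, adjusted p = 1.67e-18) and Vcan 31.6-fold lower (log2 fold change -4.98, standard error 0.07, adjusted p = 1.38e-18) in DKO MEFs. Nid1, the basement membrane linker nidogen, was also lower (-5.60), and Tnn, the gene of tenascin N, was higher (4.65). Of 29 genes tested of 30 for matrix proteases and their inhibitors 8 were higher, 16 lower and 5 not past the threshold (median -0.19), where without etoposide 18 were higher and 10 lower, beside 33.3% higher and 33.4% lower of all genes. Of 27 contractile genes and targets of SRF 16 were higher, 8 lower and 3 not past the threshold (median 0.17), and the interaction in edgeR was below 0 for 15 and above 0 for none, beside 24.4 and 29.6% of all genes. Acta2, the smooth muscle actin, was higher (1.29), and Cnn1, calponin, and Ankrd1, a target of YAP, were lower (-4.41 and -4.29).

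Among all genes tested 37.5% were higher and 36.6% lower after etoposide, and 33.3 and 33.4% without it. Of 36 genes tested of 42 for chemokines, cytokines and NF-kB 10 were higher, 18 lower and 8 not past the threshold (median -0.33), where without etoposide 21 were higher and 12 lower. Ccl2, which attracts monocytes, was measured at 164, 183 and 189 CPM in Null and 44.5, 44.3 and 43.3 CPM in DKO MEFs. Cxcl1, which attracts neutrophils, was measured at 64.5, 71.3 and 69.5 CPM in Null and 13.4, 12.1 and 13.0 CPM in DKO MEFs. Both were lower in every DKO library, with log2 fold changes of -2.02 (adjusted p = 1.14e-15) and -2.41 (adjusted p = 3.2e-16). Of 39 early response genes, which growth factors and stress switch on within minutes, 5 were higher, 26 lower and 8 not past the threshold (median -0.54). Without etoposide 22 of the 39 were higher and 13 lower (median 0.24). Their interaction lay below 0 for 25 and above 0 for 8, beside 24.4 and 29.6% of all genes. Junb, a subunit of AP-1, was lower after etoposide (log2 fold change -0.75) and higher without it (0.39). Dusp4 and Spry1, which damp MAP kinase signalling, had log2 fold changes of -3.41 and -3.59. Of 35 interferon and antigen presentation genes 23 were higher, 8 lower and 4 not past the threshold (median 0.62). Without etoposide 28 of the 35 were already higher and 5 lower (median 0.54). Their interaction lay above 0 for 13 and below 0 for 14, beside 29.6 and 24.4% of all genes. After etoposide the interferon response genes of this list were higher in 20 and lower in 3 of 26, and the MHC class I genes higher in 3 and lower in 5 of 9. Oas2, a sensor of double-stranded RNA, was measured at 5.25, 4.73 and 5.72 CPM in Null and 60.0, 56.9 and 56.4 CPM in DKO MEFs, with no overlap (log2 fold change 3.47, standard error 0.07, adjusted p = 3.84e-17). Tap1, a peptide transporter whose exons overlap Psmb9 on the opposite strand, was lower (-1.23). Of 53 genes tested of 57 for growth factor receptors and ligands 19 were higher, 25 lower and 9 not past the threshold (median -0.09), among them Pdgfra, a receptor for platelet-derived growth factor (2.21), and Egfr, the receptor for epidermal growth factor (-1.55).

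**Figure D3:**
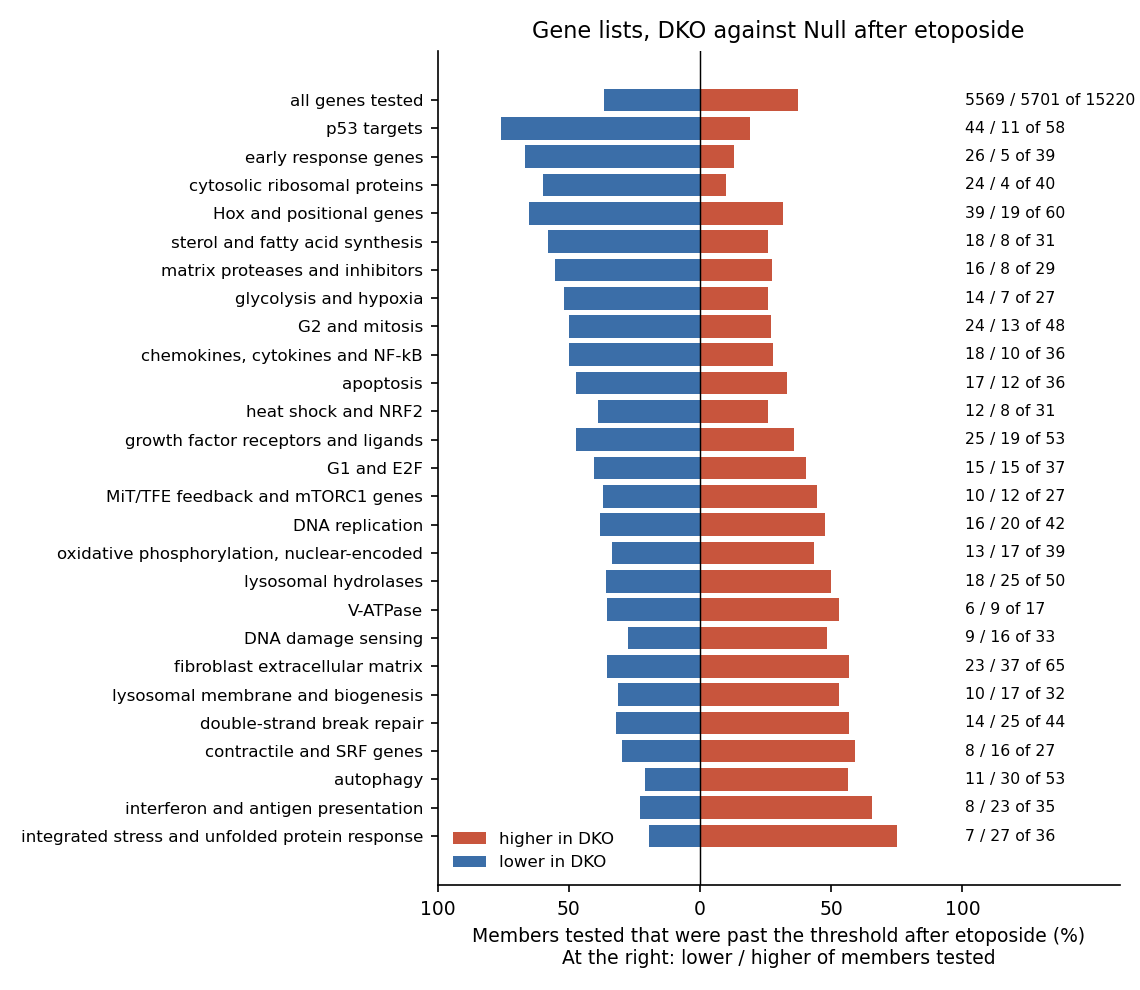
Share of the tested members of each gene list that were higher (red, to the right) or lower (blue, to the left) in DKO than in Null MEFs after etoposide at an adjusted p under 0.05, with all genes tested at the top. The numbers at the right give the members lower and higher of those tested, 44 and 11 of 58 for the p53 targets, and with DESeq2's size factors the balance of the lysosomal membrane and DNA replication lists turns.

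The integrated stress response is started by the kinases of eIF2 and carried out by ATF4. Of its 19 genes 16 were higher, 2 lower and 1 not past the threshold (median 0.35), where without etoposide 5 were higher and 12 lower, and the interaction in edgeR was above 0 for 16 and below 0 for none. The shares over all genes were 37.5% higher and 36.6% lower after etoposide, 33.3 and 33.4% without it, and 29.6 and 24.4% above and below 0 for the interaction. Slc7a11, the cystine transporter, was measured at 32.9, 28.9 and 26.2 CPM in Null and 83.0, 79.7 and 85.7 CPM in DKO MEFs. The DKO libraries were above all Null libraries (log2 fold change 1.49, standard error 0.06, adjusted p = 4.7e-13). Vldlr, a lipoprotein receptor, was measured at 25.3, 25.6 and 22.4 CPM in Null and 85.6, 84.8 and 85.8 CPM in DKO MEFs, also with no overlap (log2 fold change 1.80, standard error 0.05, adjusted p = 1.92e-15). Of 17 genes of the unfolded protein response 11 were higher, 5 lower and 1 not past the threshold (median 0.40), and Hspa5, the chaperone BiP, had a log2 fold change of 0.50. Of 31 heat shock and NRF2 genes 8 were higher, 12 lower and 11 not past the threshold (median -0.08). Nqo1, a quinone reductase under NRF2, and the small heat shock protein gene Hspb1 were lower (-1.50 and -1.37).

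In metabolic lists, beside 37.5% higher and 36.6% lower of all genes, the counts were as follows. Of 31 genes for sterol and fatty acid synthesis 8 were higher, 18 lower and 5 not past the threshold (median -0.23), with the desaturase gene Scd2 at -1.39. Of 27 glycolysis and hypoxia genes 7 were higher, 14 lower and 6 not past the threshold (median -0.22), and of 39 nuclear genes for oxidative phosphorylation 17 were higher, 13 lower and 9 not past the threshold (median 0.07), or 15 higher and 15 lower with DESeq2's size factors. Of 40 cytosolic ribosomal protein genes 4 were higher, 24 lower and 12 not past the threshold (median -0.24), and none differed 2-fold.

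Hox genes and related factors record position along the body axes. Of 66 Hox and other positional genes 60 were tested, and 19 were higher, 39 lower and 2 not past the threshold. The 2-fold threshold was passed by 12 of the higher and 35 of the lower genes, where 5.2 and 17% of all genes passed it, and 37.5 and 36.6% were higher and lower at all. The median log2 fold change was -1.83, and -1.75 with the 5 genes at the floor in a genotype set to their bound. All 9 tested Hoxb genes and all 5 tested Hoxc genes were lower, as were 8 of 11 Hoxa, 5 of 8 Hoxd and 12 of 27 other genes. Hoxd13, which patterns the digits, was measured at 30.1, 31.0 and 31.2 CPM in Null and 156, 166 and 165 CPM in DKO MEFs. Hoxa5, a gene of more anterior segments, was measured at 14.5, 12.7 and 13.2 CPM in Null and 0.142, 0.0137 and 0.00993 CPM in DKO MEFs. Hoxd13 was higher and Hoxa5 lower in every DKO library (log2 fold change 2.40, standard error 0.04, adjusted p = 9.03e-18 and log2 fold change -8.32, standard error 0.26, adjusted p = 2.03e-16). Hoxa5 lay under the floor of detection in DKO replicates 2 and 3, so that replicate 1 mainly sets the size of its fall. Tbx4, a factor of the hindlimb, was higher (2.83). Without etoposide 20 of the 60 genes were higher and 37 lower, with a median of -1.68, where 33.3% of all genes were higher and 33.4% lower. The 4 Y-linked genes on the list of sex-linked genes were present in both lines and higher in DKO MEFs, Ddx3y by a log2 fold change of 1.17, and Xist was also higher (1.68) at a mean of 0.225 CPM.

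Much of the difference after etoposide was already there without it, and part was not. Without etoposide 10157 of the 15220 genes (66.7%) differed between the genotypes, and the interaction was past the threshold for 8226 (54%), as tested with edgeR. The comparisons after and without etoposide share no library, and across genes, which are not independent replicates, their log2 fold changes had a Pearson correlation of 0.663. Of the 11270 genes that differed after etoposide 6504 also differed in the same direction without it, 1742 differed in the opposite direction and 3024 were not past the threshold without it. Of the 791 genes at least 2-fold higher after etoposide 647 (81.8%) were also higher without it, and of the 2595 at least 2-fold lower 1436 (55.3%) were also lower without it. Libraries without etoposide held 14809 to 15822 genes with a count and those after it 17912 to 19215, and a gene near 0 in both genotypes without etoposide can hardly differ there. Evpl, such a gene and a protein of the cornified envelope of epithelia, was measured at 88.5, 77.7 and 81.9 CPM in Null and 2.45, 1.45 and 2.19 CPM in DKO MEFs after etoposide, and at 0.393, 0.292 and 0.216 and 0.406, 0.337 and 0.252 CPM without it. The genotypes overlapped without etoposide and were far apart after it (interaction -5.49, standard error 0.46, adjusted p = 2.04e-08). Glyat, which joins acyl groups to glycine, and Krt13, a keratin, had interactions of -5.33 and -4.51. Above 0 lay Tspyl4, measured at 7.46, 7.51 and 7.03 CPM in Null and 15.1, 13.3 and 12.9 CPM in DKO MEFs after etoposide and at 78.3, 71.8 and 79.6 and 18.97, 18.8 and 20.6 CPM without it (interaction 2.88). DKO MEFs had less Tspyl4 than Null MEFs without etoposide and more after it, and its exons overlap Gm47512 on the opposite strand.

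**Figure D4:**
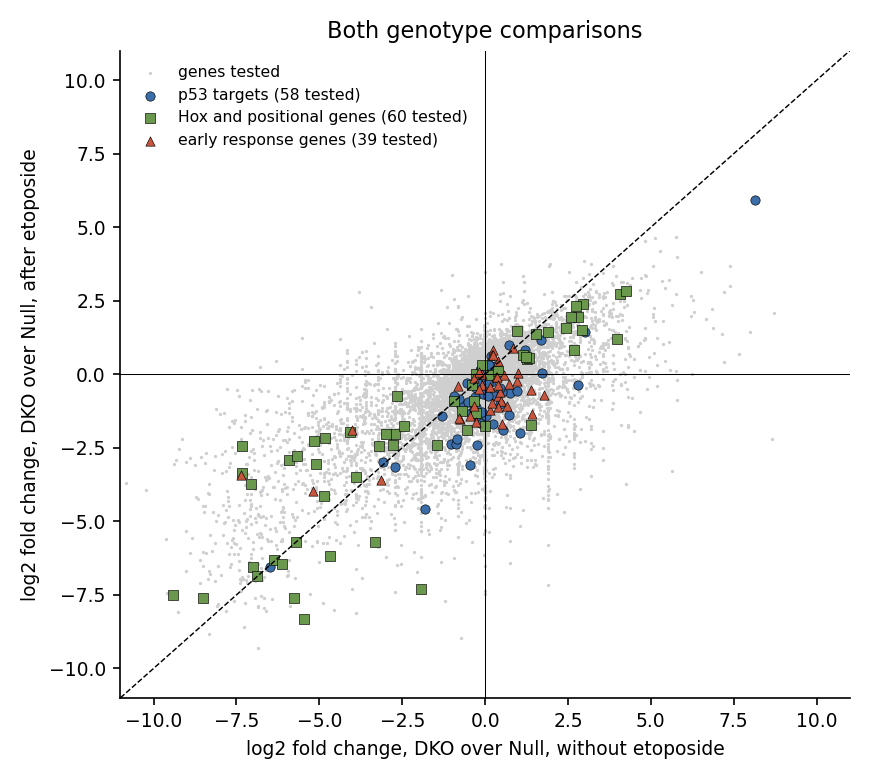
Log2 fold change of DKO over Null MEFs after etoposide (vertical axis) against that without etoposide (horizontal axis) for the 15220 genes tested, with the 58 p53 targets, 60 positional genes and 39 early response genes marked and a dashed line where both are equal. Positional genes spread widely along the line and to both sides of it, and most p53 targets lie below it. The interaction of the 60 positional genes was below 0 for 26 and above 0 for 12, beside 24.4 and 29.6% of all genes.

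Of the genes tested 15088 (99.1%) were matched by symbol to GENCODE M21 on GRCm38. The median log2 fold change was 0.49 on chromosome X, where 300 of 472 genes were higher beside 37.5% of all genes, 0.35 on chromosome 1 and 0.29 on chromosome 9. It was -0.44 on chromosome 15, where 399 of 635 genes were lower beside 36.6% of all genes, and -0.28 on chromosome 19. Without etoposide the medians of these 5 chromosomes were 0.44, 0.30, 0.26, -0.40 and -0.35. The number of copies of each chromosome was not measured, and its part in these medians was not tested. Exons of genes named above also overlap others on the opposite strand, namely Lamp1 with Grtp1, Lig3 with Rffl, Trp73 with Trp73os, Ccnd1 with LTO1, Cdkn1a with AC167363.2, Cdc20 with Elovl1, Nid1 with Gm48682, Spry1 with Gm42922, Junb with Prdx2, Map2 with Gm10558 and Pdgfra with Gm42802 and Gm42803. On the same strand this holds for Col3a1 with Gm47302, Top2a with Gm23451, Pdgfra with Mir7025 and Scd2 with Mir5114. By the genomic span of the gene the median went from -0.11 under 5000 bases to 0.12 from 200000 bases.

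**Figure D5:**
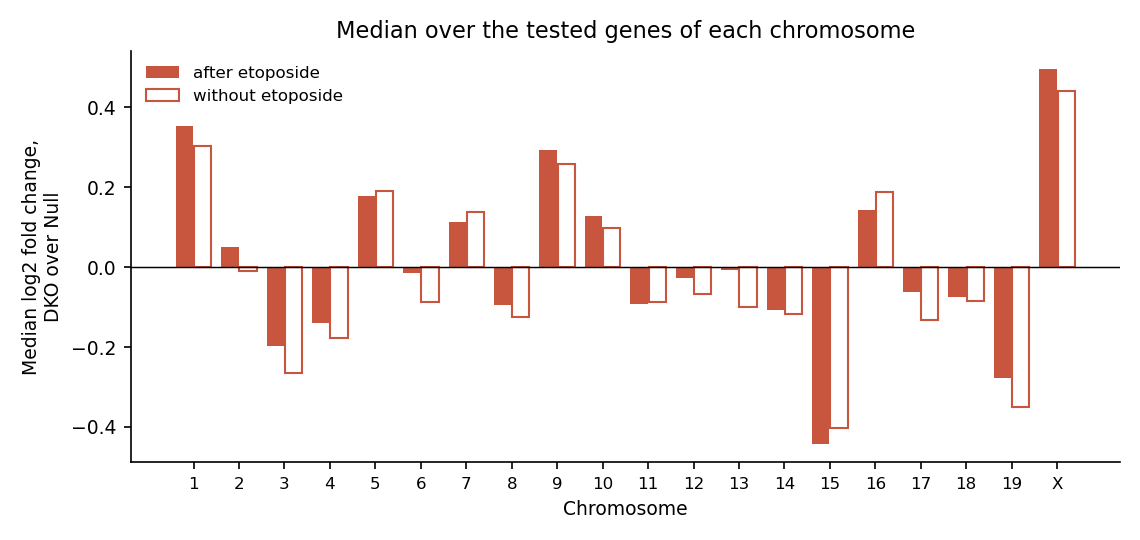
Median log2 fold change of DKO over Null MEFs over the tested genes of each chromosome, after etoposide (filled bars) and without it (open bars). Chromosome X stands highest at 0.49 and chromosome 15 lowest at -0.44 after etoposide, with like values without it.

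The p-values measure only the spread between these libraries, since nothing says that the replicates were separate cultures, and an exact permutation test of 3 libraries against 3 counted in both directions cannot give a p below 0.1.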

How the data were processed

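RNA of mouse embryonic fibroblasts was sequenced in 12 libraries, 3 per genotype and treatment, and the 6 after 8 hr of 100 µM etoposide are compared here. Per the study's methods the authors made stranded, ribosomal RNA-depleted libraries and aligned them with HISAT2, and the deposited values are counts of reads per gene. The processing notes name featureCounts and mm10, the methods HTSeq, and neither gives versions or a strand setting. Counts were used as deposited, all 24421 symbols, with the 5 summary lines left out of the fits.

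All 12 libraries entered 1 group model in edgeR 4.0.16 under R 4.3.3 (TMM factors, filterByExpr by group, 15220 genes tested, quasi-likelihood F tests). Adjusted p-values are Benjamini-Hochberg over all genes tested, and 0.05 is the threshold. Every fold change, standard error and p of a gene comes from this model unless another tool is named, and n is 3 libraries per group. CPM are scaled by TMM factors. The interaction was also tested with glmTreat beyond a 1.5-fold change. Depth was 45577023 to 94388705 counts on genes in the 6 libraries. The fits were also run on simulated data with changes planted in 1 group of 3, and no result given here draws on that run. Tables were made with Python 3.11.15 and pandas 2.3.3 and figures with matplotlib 3.10.9. Symbols were placed with GENCODE M21 on GRCm38.

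Genes were named by rule: the MiT/TFE family, the 12 largest rises and falls from 10 CPM without overlap of replicates, the 6 largest differences in CPM per direction at 2-fold or more, the 5 largest interactions per direction from 10 CPM among genes whose difference after etoposide was past the threshold with the same sign, in each gene list the 3 largest rises and falls from 1 CPM and its member at the highest CPM, and genes the study names. Of the genes so chosen 1 is not reported here, and many others are left out for length. Ctsa, Mcoln1, Twist1, Lyz2, Adgre1, Sox10, Myod1, Myog and Xist lie outside the rule and were chosen after their values were seen. Members and lists were chosen with earlier results of these data known. Alternatives were DESeq2 1.42.0, limma 3.58.1, edgeR's legacy estimates, other scaling and filters, thinning, a replicate block, the 6 libraries alone and each library left out in turn.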

Additional observations from a re-analysis of the deposited data

Results flagged for a closer look

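For 41 of the 102 tested genes that the report describes the difference between DKO and Null MEFs after etoposide was unlike that without it, by more than 1.5-fold at an adjusted p under 0.05 (interaction, glmTreat in edgeR). Over all 15220 genes tested this held for 2191. The genes described were chosen in part for large differences or interactions in these same data, so these counts cannot be set against each other. The values are log2 fold changes after etoposide minus those without it. Below 0, so that DKO MEFs were relatively lower after etoposide, were Evpl (-5.49), Glyat (-5.33), Krt13 (-4.51), Fas (-3.03), Mitf (-2.98), Atg9b (-2.86), Trp53i11 (-2.76), Cxcl1 (-2.22), Bcam (-2.17), Ctsf (-2.14), Trp63 (-2.06), Cd68 (-2.02), Ccl2 (-1.94), Ccng1 (-1.91), Ulk1 (-1.59), Thbs1 (-1.58), Wipi1 (-1.57), Vcan (-1.54), Mdm2 (-1.48), Tcirg1 (-1.41), Tbx4 (-1.41), Cd14 (-1.34), Vim (-1.20), Sema3d (-1.16), Junb (-1.14), Tap1 (-1.14), Casp6 (-1.10), Pdgfra (-1.03), Cenpe (-1.0002), Postn (-0.98), Ctsd (-0.94) and Tnfrsf10b (-0.86). Above 0 were Sqstm1 (0.80), Ccl20 (0.88), Oas2 (0.93), Vldlr (1.30), Slc7a11 (1.36), Rragd (2.13), Thy1 (2.77), Tspyl4 (2.88) and Dusp4 (3.96). In 11 of these genes both differences were past the threshold with opposite directions, in 23 both were past it with the same direction, and in 7 only the difference after etoposide was past it. No explanation of these differences was tested. The interaction of Thy1 comes from DKO libraries near the limit of detection, at 0.0405, 0.287 and 0.0596 CPM after etoposide. Its size therefore leans on DKO replicate 2.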

How the results depend on the processing

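The number of genes that differed after etoposide, 11270 of 15220, ranged from 9549 of 12026 when only genes from 1 CPM upward over the 12 libraries were tested (the stricter filter) to 11349 of 21587 with none. It was 10820 with DESeq2, 11031 with limma, 10963 with edgeR's legacy estimates, 11168 with DESeq2's size factors, 11245 with library size alone, 10900 after thinning, 11011 with only the 6 libraries and 11236 without Rn45s, Rmrp and Rpph1, an alternative chosen after seeing the data. With the replicate block it was 11274, and the correlations between libraries of the same number in Null and DKO after etoposide were 0.024, 0.016 and 0.023. Leaving out 1 library at a time gave 10858 to 11025 genes, 5316 to 5561 higher and 5455 to 5631 lower, with 750 to 798 at least 2-fold higher and 2568 to 2724 at least 2-fold lower, and 9622 to 9737 without etoposide and 7654 to 8027 for the interaction. Under the stricter filter 508 genes were 2-fold higher and 1449 were 2-fold lower, against 791 and 2595, with fewer genes tested and the low ones left out. Higher genes outnumbered lower ones with TMM (5701 against 5569) and not with DESeq2's size factors (5072 against 6096), DESeq2 (5002 against 5818), library size alone (5539 against 5706), thinning (5429 against 5471), no filter (5478 against 5871), without Rn45s, Rmrp and Rpph1 (5461 against 5775) or without any 1 of the DKO libraries. Among genes past the threshold in both fits, none changed direction under any of these alternatives. Within gene lists 259 recomputed counts stayed within 1.5 times their value and 5 did not, and the medians of lists were not recomputed. Of the medians by chromosome, by gene span and over all genes, recomputed with library size alone and with the stricter filter, 33 moved by more than the spread between replicates and 23 did not, and that over all genes, -0.004, ranged from -0.06 with DESeq2's size factors to 0.01 with the stricter filter. Of the 235 tested genes that the naming rule chose, most of which the report does not print, 4 crossed the threshold under some alternative (Wnt11, Hbegf, Atp5b and Cdk7), and none of these is in the report. Genes outside the rule were not recomputed 1 by 1. Depth limits what can be said of genes under 0.0607 CPM.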
